A study of Rattus norvegicus with 35 samples.

Results

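Transcripts of 8 genes that encode receptors for the PDGF, EGF and FGF families of growth factors were examined in rat converted hypoblast stem cells: Pdgfra, Pdgfrb, Egfr, Erbb2, Erbb3, Fgfr1, Fgfr2 and Fgfr4. They were chosen by name and not by their values, though with earlier results of these data known, and are 8 of the 17198 genes in the count table. Each was represented by 1 RefSeq transcript record, so isoforms were not told apart. The cells had been converted from rat embryonic stem cells in a medium that supplied the cytokine LIF, the growth factors PDGF and EGF, and serum at 2%. Passaging began after the first 7 days and harvest was at day 12 of differentiation. The 2 groups share this cell source, medium and time. They are 34 libraries of single cells, prepared on a C1 microfluidic chip, and 1 library of the bulk population. No culture without PDGF or EGF and no starting embryonic stem cell is among the samples, so the levels below describe 1 condition.

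The receptors are tyrosine kinases of the cell surface. Binding of a ligand joins receptors into pairs, the kinases phosphorylate each other, and adaptor proteins on the phosphorylated tails start the Ras-ERK and PI3K pathways. In the early rodent embryo, FGF signalling through ERK directs cells of the inner cell mass toward the hypoblast, also called primitive endoderm, and Pdgfra is one of the earliest surface markers of that lineage.

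Total reads in genes ranged from 6288 to 503044 per cell (median 266046) and were 47121 in the bulk library. Because many chambers held few genes, cells are also described separately for the 22 with at least 50000 reads and at least 3000 genes with a read, called gene-rich, and the 12 others. Of the 9 other hypoblast markers listed, 6 (Gata6, Gata4, Sox17, Foxa2, Dab2 and Cubn) were detected in at least 17 cells, where detection means 5 CPM (counts scaled to 1000000 reads of the library) or more. A single read was worth 1.99 CPM in C54 and 159 CPM in C94, so 1 read is detection in shallow cells and not in deep ones. No hypoblast marker was detected in C30 or C94. With 1 pool of cells and 1 bulk library, each group is a single sample, so nothing was tested across samples, SDs describe the spread between cells, and intervals cover counting error only. Transcript lengths were not used here, so levels are compared between libraries and not between genes, and a long transcript is easier to detect than a short one.

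Pdgfra, the receptor for PDGF-A and other PDGF chains (record NM_012802), was the 1 receptor found in most cells. It accounted for 1806 of the 2042 reads of all 8 genes in the cells. It was detected in 23 of 34 cells (67.6%, exact 95% interval 49.5% to 82.6%), at a lowest value of 0, a median of 24.3 and a highest value of 1301 CPM. The mean was 182 ± 287 CPM (SD, 34 cells). Of the 8 receptors Pdgfra alone reached 17 cells, as did 27.3% of all genes with a read in the cells. Pdgfra was detected in 19 of the 22 gene-rich cells (86.4%, 65.1% to 97.1%) and in 4 of the 12 others (33.3%, 9.92% to 65.1%), which had a median of 79838 reads against 304620. With the 30 deeper cells thinned to 50000 reads each, it was detected in 19 of these 30 (63.3%). Before thinning, all 23 cells with Pdgfra were among these 30.

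For 5 of the 8 receptors, RefSeq's GRCr8 table holds the window before the start of the gene. The 250 bases before the start are printed for Pdgfra, the widely detected receptor, for Egfr, the receptor for the EGF of the medium, and for Fgfr2, which had the most CpG pairs. Capitals mark each CpG, the base pair step at which mammalian DNA is methylated. The windows lie at chr14:33408517-33408766 on the minus strand (Pdgfra), chr14:95378376-95378625 on the plus strand (Egfr) and chr1:194280915-194281164 on the minus strand (Fgfr2).
Pdgfra: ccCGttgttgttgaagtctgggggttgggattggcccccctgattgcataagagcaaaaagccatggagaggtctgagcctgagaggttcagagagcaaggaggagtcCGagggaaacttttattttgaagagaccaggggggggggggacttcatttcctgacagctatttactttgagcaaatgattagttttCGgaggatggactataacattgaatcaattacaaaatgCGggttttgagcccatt
Egfr: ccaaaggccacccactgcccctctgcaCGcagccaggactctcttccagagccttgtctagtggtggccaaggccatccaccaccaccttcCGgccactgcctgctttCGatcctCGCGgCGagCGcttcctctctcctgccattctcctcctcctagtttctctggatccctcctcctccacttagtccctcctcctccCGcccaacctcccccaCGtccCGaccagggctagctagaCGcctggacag
Fgfr2: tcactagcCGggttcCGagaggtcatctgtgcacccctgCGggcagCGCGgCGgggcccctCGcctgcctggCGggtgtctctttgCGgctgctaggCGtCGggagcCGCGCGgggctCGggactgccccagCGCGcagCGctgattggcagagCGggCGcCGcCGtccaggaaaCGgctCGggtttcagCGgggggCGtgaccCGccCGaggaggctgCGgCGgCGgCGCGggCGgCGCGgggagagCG

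The Pdgfra window was the poorest in CpG of the 5, with 4 CpG pairs and 47.2% G and C. The Egfr and Fgfr4 windows held 11 CpG pairs each, the Erbb2 window 19 and the Fgfr2 window 37, which was more than in 98.1% of the 33469 windows in the table. Over all windows the median was 5 CpG pairs and 51.2% G and C. The letters GGGCGG, a GC box, searched on both strands, were present in the windows of Egfr, Erbb2, Fgfr2 and Fgfr4 and in 30.5% of all windows, and were not in that of Pdgfra. The letters AGATAA, a site type of the GATA family, occur in 10.3% of all windows. Those of SOX factors, AACAAT, occur in 10.3%, and the core promoter element TATAAA in 12.9%. On both strands, none of these was in any of the 5 windows. These are descriptions of letters in a window, and DNA methylation and factor binding were not measured.

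**Figure D1:**
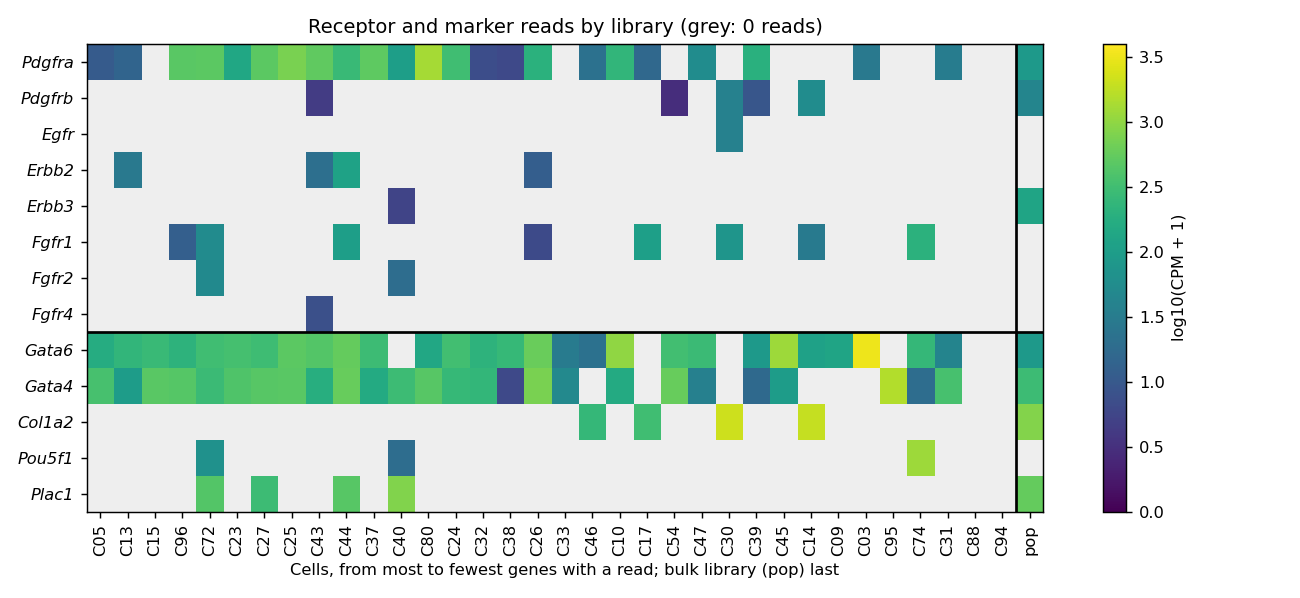
Levels of the 8 receptors and of 5 marker genes in each library, as log10(CPM + 1), with cells ordered from most to fewest genes with a read and the bulk library (pop) at the right. Grey marks 0 reads. The Pdgfra row is filled in 23 cells, while the other receptor rows are filled in 1 to 8 cells each.

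Pdgfra varied widely even among gene-rich cells. The highest value was 1301 CPM in C80, from 452 reads (exact Poisson 95% interval 1184 to 1427), followed by 762 CPM in C25 and 528 CPM in C43. C37, C72, C27 and C96 lay between 473 and 502 CPM. C24, C44, C10, C26, C23 and C40 followed, at 310, 276, 233, 199, 138 and 104 CPM. Below C40, at 104 CPM, the next gene-rich cell was C46, at 20.97 CPM, and this gap, noticed after the values were seen, separated 13 gene-rich cells from 9.

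Of these 9 cells, 6 held 1 to 4 Pdgfra reads. C46 held 20.97, C17 15.4, C13 13.6, C05 9.75, C32 6.18 and C38 5.28 CPM. C15, C33 and C54 had 0 reads. Of the 9 cells, 7 held 293829 to 503044 reads and 5 to 8 of the 9 other hypoblast markers. The remaining 2, C17 and C46, held 1 and 2 of these markers, and both held Col1a2, a fibrillar collagen gene of fibroblasts.

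Among the 12 other cells, Pdgfra was 193 CPM in C39, 54.8 in C47, 31.3 in C31 and 27.6 in C03, and 0 in the rest. A count of 0 means different things in these libraries. In the 5 cells with more than 300000 reads and no Pdgfra read (C15, C33, C54, C74 and C95), 3 reads would be at most 9.68 CPM. In the 6 shallower cells without a read, the same 3 reads would be 47.1 to 477 CPM. In C88 and C94 they would be 235 and 477 CPM, above the median of 193 CPM over the 23 cells with Pdgfra. A level like that of many Pdgfra cells would thus give under 3 reads in C88 and C94. In C09, C45, C14 and C30 they would be 47.1, 48.6, 84.1 and 110 CPM, under that median.

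**Figure D2:**
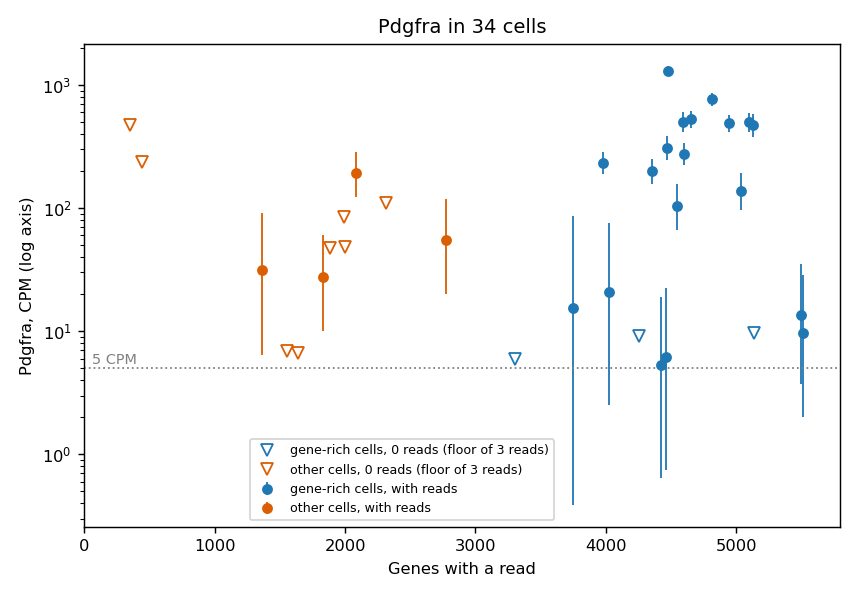
Pdgfra in each of the 34 cells (log axis, CPM) against the number of genes with a read. Filled circles are cells with Pdgfra reads, with exact Poisson 95% intervals, and open triangles are cells with 0 reads, placed at the level 3 reads would give. The 13 gene-rich cells above 100 CPM lie apart from the 9 at or under 20.97 CPM.

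Gata6, Gata4 and Sox17, transcription factor genes of the hypoblast, were detected in 28, 26 and 24 of the 34 cells. Of the 23 cells with Pdgfra, 21 held Gata6, 20 held Gata4 and 19 held Sox17, and 20 held Dab2, an endocytic adaptor. Within the gene-rich cells, Gata6 was in 17 of the 19 with Pdgfra and in 20 of all 22, and so were Gata4 and Dab2. Sox17 was in 16 of the 19 and in 19 of the 22. All 3 gene-rich cells without Pdgfra held each of these 4 genes. Ranks went together only weakly, and a weak correlation in sparse counts is no finding. Over the 22 gene-rich cells, Spearman's rho with Pdgfra was 0.43 for Foxa2, 0.35 for Gata6, 0.22 for Gata4, −0.0017 for Sox17 and −0.26 for Dab2. It was 0.24 for the number of genes with a read and −0.17 for total reads.

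The genes whose pattern over the gene-rich cells was most like that of Pdgfra were Ptpn13, which encodes a tyrosine phosphatase (rho 0.72), Elf2, an ETS family transcription factor gene (0.65), Plod2, a collagen lysyl hydroxylase gene (0.64), Tprg1l (0.64) and Vegfa, which encodes a vascular growth factor (0.64). They were picked as the highest of 4124 genes, for which rho ran from −0.75 to 0.72 with a median of 0.02. These correlations over 22 cells of 1 sample share library depth and quality and are descriptions. Over all 34 cells rho was 0.63 for Ptpn13 and 0.28 for Vegfa.

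Pdgfrb, the second PDGF receptor (NM_031525), which marks fibroblasts and the mural cells of vessels, had 6 reads in the cells. It was detected in 3 cells (8.82%, 1.86% to 23.7%): C14 with 2 reads (56.1 CPM), C30 with 1 read (36.7 CPM) and C39 with 1 read (8.05 CPM). C43 and C54, both gene-rich, also had 1 read each, worth 3.32 and 1.99 CPM. None of the gene-rich cells reached 5 CPM, which takes more than 1 read in most of them. C14 and C30 had 0 Pdgfra reads, and C39 was the 1 cell with both PDGF receptors at 5 CPM or more. Both C14 and C30 carried markers of fibroblasts, with 5 and 4 of the 10 listed markers detected, 3195 and 3005 CPM summed over the list, and 1 and 0 of the 9 hypoblast markers. C39 was among the 21 cells with 0 reads over the fibroblast list. The part of such cells in the Pdgfrb reads was not tested.

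Egfr, the receptor for EGF (NM_031507), had 1 read among the 8060038 reads of the 34 cells and 0 in the bulk library. The read was in C30 (36.7 CPM), the cell with fibroblast markers and no hypoblast marker. Detection in 0 of the 22 gene-rich cells gives an interval up to 15.4%. In single gene-rich cells 3 reads were worth 5.96 to 46.1 CPM, and over their 6423609 reads together 3 reads were worth 0.467 CPM.

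Erbb2, the EGF receptor family member that binds no ligand itself and works as a partner (NM_017003), was the member of that family seen most often. It was detected in 4 cells (11.8%, 3.30% to 27.5%), at 117 CPM in C44, 27.2 in C13, 19.9 in C43 and 11.1 in C26. C44 held 66.7% of the signal, and the mean fell from 5.14 to 1.76 CPM without it. All 4 cells were gene-rich, and all held Pdgfra, Gata6, Gata4 and Sox17, which 19 or 20 of the 22 gene-rich cells held. Erbb3, a neuregulin receptor with a weak kinase (NM_017218), had 1 read in the cells, in C40 at 4.51 CPM, and so was detected in none of them, as was the case for 40.3% of all genes.

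Fgfr1 (NM_024146), an FGF receptor of epiblast and hypoblast cells in the mouse embryo, came second to Pdgfra among the 8 in the number of cells. It was detected in 8 cells (23.5%, 10.7% to 41.2%), at a mean of 17.4 ± 44.01 CPM (SD, 34 cells) and a median of 0. The values were 206 CPM in C74 (89 reads), 108 in C17 (7 reads), 104 in C44 (34 reads), 73.3 in C30 (2 reads), 53.7 in C72 (15 reads), 28.03 in C14 (1 read), 11.4 in C96 (2 reads) and 5.53 in C26 (2 reads). Of these 8 cells, 5 also held Pdgfra, which is 62.5% of the cells with Fgfr1 and 21.7% of those with Pdgfra.

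The Fgfr1 cells were of several kinds. C14, C17 and C30 are 3 of the 4 cells with Col1a2, and their summed fibroblast list was 400 to 3195 CPM. C74 held 505 of the 527 Pou5f1 reads of the 34 cells, where Pou5f1 encodes the pluripotency factor Oct4, and 4 of the 9 hypoblast markers. C26, C44, C72 and C96 held 5 to 8 hypoblast markers. Without C74 the mean of Fgfr1 was 11.6 CPM, and without the 4 cells with Col1a2 it was 12.7 CPM. The part of these marker genes' cells in the Fgfr1 level was not tested.

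Fgfr2 (NM_012712), the FGF receptor of the trophoblast and hypoblast in the mouse embryo, was detected in C72 (50.2 CPM, 14 reads) and C40 (18.05 CPM, 4 reads) and in no other cell. Fgfr4 (NM_001109904) had 2 reads, both in C43 (6.64 CPM). All of these cells held Pdgfra. Counted together, Fgfr1, Fgfr2 or Fgfr4 was detected in 10 of 34 cells (29.4%, 15.1% to 47.5%), an EGF receptor family member in 5 (14.7%, 4.95% to 31.1%) and a PDGF receptor in 25 (73.5%, 55.6% to 87.1%).

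**Figure D3:**
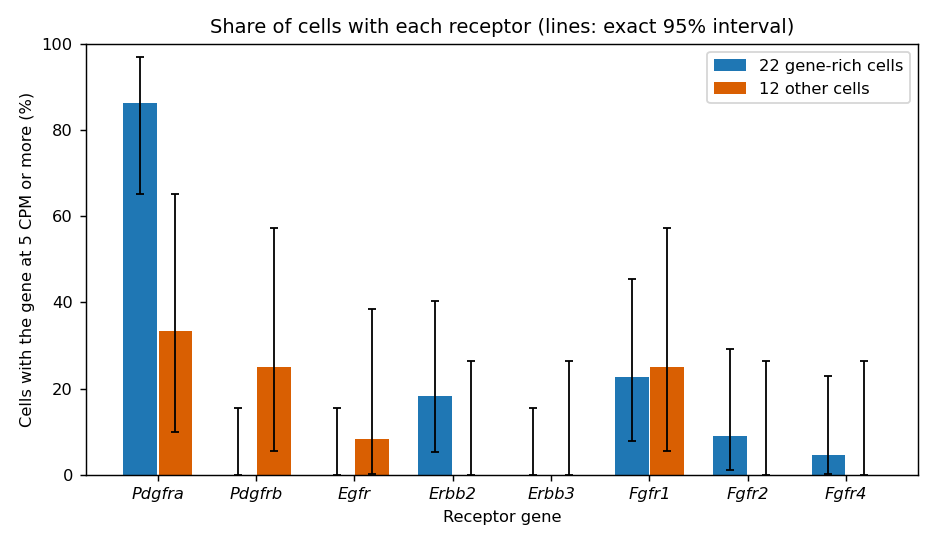
Share of cells with each receptor at 5 CPM or more, for the 22 gene-rich cells and the 12 others, with exact 95% intervals as lines. Pdgfra stands at 86.4% and 33.3%, and no other receptor is in more than 5 of the gene-rich cells or 3 of the others. In deep libraries 5 CPM takes more than 1 read, so 1 Pdgfrb read counts in C30 and C39 and not in C43 and C54.

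Cells held 0 to 3 of the 8 receptors. None was detected in 8 cells, 1 in 15 cells, 2 in 6 cells and 3 in 5 cells, and in 14 of the 15 cells with 1 receptor it was Pdgfra. In the exception, C74, it was Fgfr1. The 8 cells without any included C15, C33 and C54 from the gene-rich set, and C88 and C94, the shallowest libraries. Of the 28 possible pairs of receptors, 11 occurred in at least 1 cell, of which 5 involved Pdgfra. Counting these 8 genes, only 4 cells held a receptor of each of the 3 families. They were C26, C43 and C44, with Pdgfra, Erbb2 and an FGF receptor, and C30, with Pdgfrb, Egfr and Fgfr1. C13 held Pdgfra and Erbb2, and also Fgfr3, an FGF receptor gene outside the 8 (279 CPM).

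In the bulk library 3 of the receptors had reads, and their proportions differed from those in the cells. Pdgfra had 4 reads, or 84.9 CPM (exact Poisson 95% interval 23.1 to 217). The mean of the cells was 2.14-fold higher (0.838 to 7.87, from the bulk reads alone), an interval that includes no difference. By summed reads, with each cell weighted by its depth, it was 2.64-fold higher (1.03 to 9.70, too narrow because reads are not independent molecules). With the median over cells, 24.3 CPM, in place of the mean, the direction turned, to a log2 ratio of −1.76. Without C80, the mean of the cells was 148 CPM and the difference was under 2-fold.

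Erbb3 had the most bulk reads of the 8, 6 reads or 127 CPM (46.7 to 277). Against the 1 read in the cells, the share of reads was 1026-fold higher in bulk (125 to 47207, from the reads of both). Pdgfrb had 2 bulk reads, 42.4 CPM (5.14 to 153), and was 57.0-fold higher in bulk (5.63 to 319) by the summed reads and 13.6-fold by the equally weighted mean of the cells. The other 5 had 0 bulk reads, as did 56.5% of all genes with a read in the cells. A level of 3 bulk reads would be 63.7 CPM, and the upper end of the exact interval for 0 reads is 78.3 CPM. The mean of the cells was under both for each, so no difference between cells and bulk was detectable.

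Among the 4741 genes with a bulk read, 41.7% were at least 2-fold higher in bulk and 11.2% at least 2-fold higher in the cells, with a median log2 ratio of cells to bulk of −0.66 on the log2(CPM + 1) scale. With DESeq2 size factors this median was 0.016. Of the 3 receptors, 1 was at least 2-fold higher in the cells and 2 in bulk, at 1.09 for Pdgfra, −3.40 for Pdgfrb and −6.82 for Erbb3.

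Markers of other cell types were also present in the bulk library. Of 9 trophoblast markers, 5 had bulk reads (Plac1, Prl3d1, Dlx3, Tfap2c and Hand1). The list summed to 1019 CPM in bulk, against 0 to 848 CPM in single cells. The highest cell was C40, which also held the 1 Erbb3 read and 7 of the 9 hypoblast markers. Plac1 made up 839 CPM of its sum, and 2 of the 9 trophoblast markers were detected there. Prl3d1 and Dlx3 had no read in any single cell. Cdx2, Elf5, Gata3 and Prl3b1 were at 0 in bulk. Of 10 fibroblast markers, Col1a1, Col1a2 and Fbn1 had bulk reads, 1719 CPM in all, against 0 to 3195 CPM in single cells, and the other 7, among them Col3a1 and Dcn, were at 0. The part of such cells in the Erbb3 and Pdgfrb reads was not tested, and in a bulk library more cells of a type and more RNA per cell cannot be told apart.

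Of 17 other receptor tyrosine kinases measured, 7 were detected in no cell, a share near the 40.3% of all genes, and 1 reached 17 cells, where 17.002% of all genes did. Kit, the receptor for stem cell factor, was detected in 17 cells at 87.8 ± 128 CPM (SD, 34 cells), and Fgfr3, the remaining FGF receptor kinase, in 15 cells at 55.6 ± 111 CPM. Flt1, a VEGF receptor, was detected in 10 cells and Epha2, an ephrin receptor, in 7. Fgfr3 was highest in C72, at 494 CPM, and was found in 12 of the 23 cells with Pdgfra and in all 4 cells with Erbb2. When Fgfr3 is counted, 20 cells in place of 10 held an FGF receptor. Erbb4 was detected in none.

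Of 24 measured ligand genes, 14 were detected in no cell and 0 reached 17 cells. Of all 17198 genes, 40.3% were detected in no cell and 17.002% reached 17 cells. Fgf10 was detected in 16 cells at a mean of 47.1 CPM, which was 12.9 CPM without C88. Hbegf, an EGF receptor ligand, was detected in 11 cells (25.01 ± 60.1 CPM), Pdgfa, the PDGF-A chain gene, in 6 and Nrg1, a ligand of Erbb3, in 5. Egf itself was found in C44 alone, with 52 reads. Of the 6 cells with Pdgfa, 5 also held Pdgfra, and these 5 were gene-rich cells, of which 19 of 22 held Pdgfra.

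Of 29 measured genes of the signalling cascade, 9 were found in at least 17 cells (31.03%, against 27.3% of all genes with a read), and each was found in at least 1. The adaptor gene Gab1 was detected in 25 cells at a mean of 288 CPM, which was 167 CPM without C74. Ptpn11, which encodes the phosphatase Shp2, was detected in 24 cells (109 ± 162 CPM), and Grb2, an adaptor of Ras activation, in 21.

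Of the co-receptors and feedback inhibitors, 1 gene in each list reached 17 cells, 1 of 9 and 1 of 13, where 17.002% of all genes did. Sdc4, a heparan sulfate proteoglycan that binds FGFs, was detected in 24 cells at 338 ± 409 CPM, and was the 1 of 9 co-receptors to do so. Gpc1 and Gpc4, also proteoglycan genes, were each detected in 11 cells, and Nrp1 in C30 alone. Spry2, an inhibitor of Ras-ERK signalling that is itself induced by it, was detected in 18 cells (75.9 ± 115 CPM) and was the 1 of 13 feedback genes. Errfi1, an inhibitor of EGF receptor kinases, was detected in 15 cells, the ERK phosphatase gene Dusp6 in 10 and Dusp7 in 9. Spry2 was detected in 13 of the 23 cells with Pdgfra and in 5 of the 11 without. Within the gene-rich cells it was in 12 of the 19 with Pdgfra and in 14 of all 22.

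**Figure D4:**
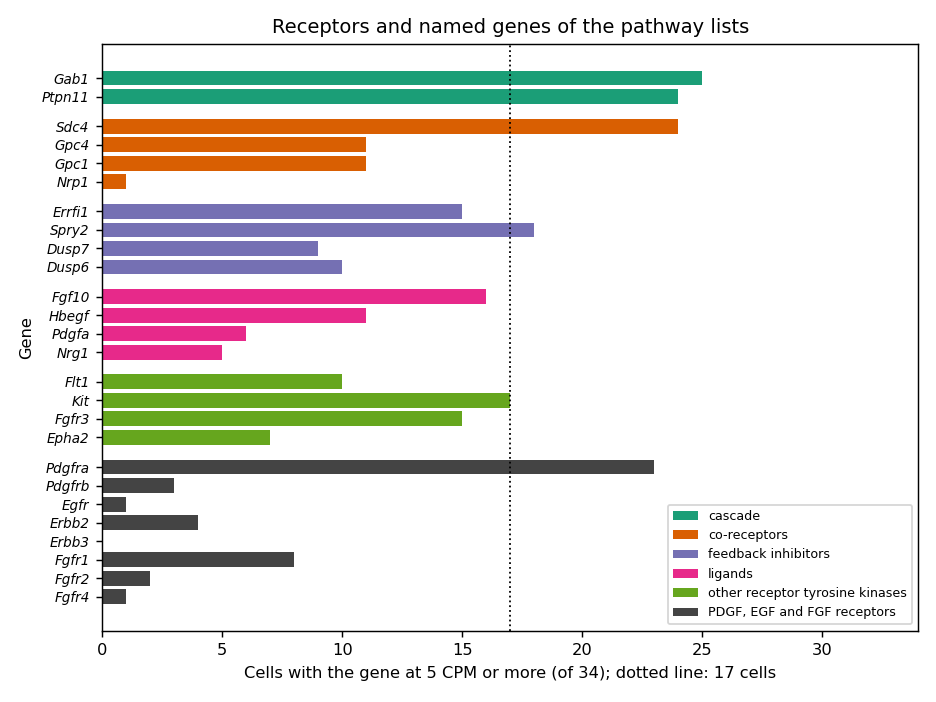
Number of the 34 cells with each gene at 5 CPM or more, for up to 4 genes of each pathway list with the highest mean and for the 8 receptors. The dotted line marks 17 cells. Pdgfra (23 cells) is the 1 receptor of the 8 past the line, with Gab1 (25), Sdc4 (24), Ptpn11 (24) and Spry2 (18) from the other lists.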

How the data were processed

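Messenger RNA was sequenced from 34 single cells and 1 bulk library. The authors deposited 1 table of raw read counts, with a row for each RefSeq transcript. TopHat2 and the rn5 build were used, per the submitters' processing notes. How reads were counted, with which annotation, and how multiply mapped reads were treated is not given in the sources used here. No molecular identifiers are mentioned. Of nonzero counts, 59.8% to 72.6% in a cell and 79.9% in the bulk library were even. The bulk counts of Pdgfra, Pdgfrb and Erbb3, at 4, 2 and 6, were even too. Reads are therefore not independent molecules, and intervals are too narrow, those of the bulk reads included.

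Of 17201 records, 16209 were matched to a symbol in the RefSeq gene table of GRCr8 and summed per symbol. The other 992, with 4.14% of the reads, kept their identifiers and stayed in library totals. CPM is the count over the library's total, per 1000000. Shares have Clopper-Pearson and reads exact Poisson 95% intervals, and ratios of summed reads have exact conditional binomial ones (scipy 1.17.1). Cells and bulk were compared over genes where the mean of the cells' level and the bulk level was at least 1 CPM, with a pseudocount of 1 CPM. None of the 561 pairs of cells held identical counts, and no cell was removed. No doublet caller was run. TMM factors came from edgeR 4.0.16 and size factors from DESeq2 1.42.0. The code for ratios and correlations was checked on simulated data, with a bulk library far deeper than the real one and genes at 50 CPM or more. That check does not cover ratios from the few bulk reads of the receptors.

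The receptors and gene lists were chosen with earlier results of these data known. Named were the 8 receptors, the 4 genes of each pathway list with the highest mean over cells, and the 5 genes most like Pdgfra. Of the cascade list, 2 of these 4 are not reported here. Grb2, Egf and Erbb4 were named after their values were seen. Listed genes not matched to a record, among them Braf, Cbl, Klb, Fgf4 and Spry1, are not analysed here.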

Additional observations from a re-analysis of the deposited data

How the results depend on the processing

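Of 354 values recomputed under 18 alternatives, 320 were counted as unchanged. Shares and the ratios of single receptors to bulk had to stay inside their interval. Counts, correlations and the median ratio over genes had to stay within a set fold or difference. For levels the limit was the SD between cells, which exceeded the mean for each receptor, so no fall could pass it. The Pdgfra level of 24.3 CPM by the median, against 182 CPM by the mean, thus counted as unchanged. The alternative that kept 1 record per gene could change no receptor value, as each had 1 record. At 50 CPM, Pdgfra was detected in 44.1% of cells, Erbb2 in 2.94%, and Egfr and Fgfr4 in 0. No receptor then reached 17 cells (0), 44.1% of cells held none, 5.88% held 2 or more, and 5 pairs occurred, with 2 cascade genes, 0 feedback inhibitors and 0 other receptor kinases in at least 17 cells. In gene-rich cells alone, Pdgfra stood at 86.4%, Pdgfrb and Egfr at 0, and 7 pairs occurred. Of the lists, 3 feedback inhibitors, 1 ligand gene and 2 other receptor kinases were each detected in at least 11 of these 22 cells. At 1 read, 2 other receptor kinases reached 17 cells. Without the cells with Col1a2, Egfr stood at 0, and 2 other receptor kinases were detected in at least 15 of the 30 cells that remained. After thinning 30 cells to 50000 reads, Egfr and Fgfr4 stood at 0, and Pdgfra at 63.3% of these 30, against 67.6% of all 34 without thinning. The 4 shallowest cells were left out here. They held no Pdgfra read, so the 30 cells included all 23 with Pdgfra before thinning. C30, with the 1 Egfr read, was among those left out.

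In the log2 ratio of cells to bulk, Pdgfra turned from 1.09 to −1.76 with the median over cells, and Pdgfrb moved to −5.44. Without the cell that adds most, Pdgfra was 0.80, so 0 receptors in place of 1 were 2-fold higher in the cells, as also with the median over cells (0). For Erbb3, a pseudocount of 0.1 CPM gave −9.10 and one of 10 CPM gave −3.76. The median over genes with a bulk read moved from −0.66 to −0.51 in gene-rich cells, −0.47 with TMM factors, 0.016 with size factors, −4.47 with the median over cells and −1.11 without the cell that adds most. The causes were not tested. Leaving out C74 was chosen after seeing the data and moved no result past the limits given above. No paired analysis was possible because the bulk group has 1 library. With 47121 bulk reads, levels under 3 reads (63.7 CPM) were not told from 0 in bulk.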

Other observations

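The 3 cells with Pou5f1 reads, C40, C72 and C74, were looked at together after their values were seen. They held the 3 highest values of Sdc4, at 1263, 1379 and 1167 CPM. They also held the 3 highest of Dppa3, a gene of pluripotent and germ cells, at 149, 906 and 1564 CPM. Their Pou5f1 reads numbered 4, 18 and 505. Of the 6 measured markers of pluripotent cells, each held 3 at 5 CPM or more, as did C54, and Esrrb had no read in any cell. The receptors of C40, C72 and C74 differed. C40 held Pdgfra at 104 CPM, Fgfr2 at 18.05 CPM and the 1 Erbb3 read. C72 held Pdgfra at 498 CPM, the highest Fgfr3 value of the 34 cells, and both Fgfr1 and Fgfr2. C74 held Fgfr1 at 206 CPM and 0 reads of Pdgfra among 431709. Plac1, a placental gene, was at 839 CPM in C40 and 430 CPM in C72, at 0 in C74, and was found besides in C44 and C27. C40, C72 and C74 had 4544, 5100 and 1556 genes with a read. Kit, found in 17 of the 34 cells, had 0 reads in all 3.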
